A study of Mus musculus with 22 samples.

Results

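The 10 genes described here are the PGC-1 coactivators, the nuclear receptor and DNA-binding factors that act with them on mitochondrial genes, and regulators and markers of thermogenic fat: Ppargc1a, Ppargc1b, Esrra, Nrf1, Gabpa, Tfam, Nrip1, Cidea, Prdm16 and Dio2. They were taken by name from the biological spots of the array and make up 10 of the 34741 gene names on it, with 17 probes between them. They were measured in the epididymal white fat of male C57BL/6JOlaHsd mice, an inbred strain, which had arrived at 10 weeks of age and had eaten a purified diet with 10% of its energy from fat for 3 weeks, then one with 40% for 6 weeks. Fasted mice breathed air with 20.9% oxygen (normoxia, 12 mice) or 12% oxygen (hypoxia, 10 mice) for 6 hours, and the study asked how white fat responds to such a short restriction. The labels name no transgene and no agent, and every animal, normoxia mice included, shared the fast, the diet change and housing at 21 °C. The treatment text also names low-fat feeding without saying which mice it means, so that diet could not be modelled. Each mouse had a 2-colour Agilent array of its own: its RNA was labelled with Cy5 and set against 1 pool, made from every sample and labelled with Cy3; the dyes were never swapped. The series text calls the mice of a group biological replicates. Values are log2 ratios of a mouse to that pool, and a difference is hypoxia minus normoxia.

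PGC-1 alpha and PGC-1 beta, the products of Ppargc1a and Ppargc1b, are coactivators: they bind no DNA themselves and raise transcription where a nuclear receptor or another factor holds them. ERR alpha (Esrra), an orphan nuclear receptor, and the nuclear respiratory factors NRF1 (Nrf1) and GABP alpha (Gabpa, the DNA-binding part of NRF2/GABP) carry them to nuclear genes of the respiratory chain and to Tfam, whose product enters mitochondria and packages and transcribes their DNA. RIP140 (Nrip1) is a corepressor of the same receptors, Prdm16 a coregulator of brown and beige fat identity, Dio2 the deiodinase that makes active thyroid hormone inside the cell, and Cidea a lipid droplet protein that is abundant in brown fat and also made in white fat. In brown fat some of these genes, Ppargc1a and Dio2 among them, are switched on by beta-adrenergic signals during cold exposure, while white fat makes less of them.

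Some of these regulators bind short DNA motifs, and 5 motifs were searched in the start regions of 8 members. In 4 of these members 1 motif was found. It was that of a member in Esrra (NRF1) and Tfam (GABP), and that of a factor outside the set in Dio2 and Ppargc1a. The share of all promoters that hold at least 1 of the 5 was not counted, so the 4 are not read as a trait of the members. RefSeq's table for GRCm38.p6 gave 10 promoters, each from 250 bases before a transcript start to 50 bases after it, for 8 of the genes that were searched on both strands for 5 motifs. The NRF1 motif GCATGCGC was found in the Esrra promoter, beginning 34 bases before the start, and in 2.71% of all 32851 promoters. The GABP motif CGGAAGT was found in the Tfam promoter, 46 bases before the start, and in 6.42% of all promoters. The cyclic AMP element TGACGTCA was found in the Dio2 promoter, 95 bases before the start, and in 1.79% of all. The core of the hypoxia response element, ACGTG, lay on the other strand of the Ppargc1a promoter, 51 bases before the start, and is short enough to be found in 19.6% of all promoters. The ERR half-site AAGGTCA is held by 4.72% of all promoters and these letters are in none of the 10 windows. The motif GCATGCGC holds no other motif of the 5, and a match describes the letters alone. The 120 bases before each of these starts are shown on the gene's strand, with the motif in capitals, because they show where these letters lie; in Esrra and Tfam the motif is that of another member.
Esrra, chr19:6921809-6921928, minus strand: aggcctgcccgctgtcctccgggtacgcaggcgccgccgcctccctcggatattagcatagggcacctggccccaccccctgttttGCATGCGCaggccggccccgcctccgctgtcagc
Tfam, chr10:71238045-71238164, minus strand: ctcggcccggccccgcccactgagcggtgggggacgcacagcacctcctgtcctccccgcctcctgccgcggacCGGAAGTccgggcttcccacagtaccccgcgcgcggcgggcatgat
Dio2, chr12:90739039-90739158, minus strand: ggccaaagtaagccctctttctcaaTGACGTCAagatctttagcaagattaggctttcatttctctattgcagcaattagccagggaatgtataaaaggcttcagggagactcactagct
Ppargc1a, chr5:51567726-51567845, minus strand: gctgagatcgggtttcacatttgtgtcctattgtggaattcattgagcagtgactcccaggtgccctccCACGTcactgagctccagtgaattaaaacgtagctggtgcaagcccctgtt

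Each measurement rests on a 60-base probe at one place in a transcript, and probes of a gene at different places did not always see it equally well. The first 30 bases of the probes that the results turn on are shown, with the probe's place on mm9, the build of the file's annotation; whether a probe lies in a coding exon or an untranslated one is not given by the annotation used here.
Esrra, chr19:6985503-6985562, minus strand: cagagactctattttaatgtatatttgctg
Ppargc1a, first probe, chr5:51848928-51848987, minus strand: ccccttcaaatggcagcatttccatgaaga
Ppargc1a, second probe, chr5:51846926-51846985, minus strand: aggccaatgcagctaattttgacagctgca
Gabpa, first probe, chr16:84863822-84863881, plus strand: aagggaggagaatttttgcatacattttta
Gabpa, second probe, chr16:84860691-84860750, plus strand: tgaagactcttattggatacagtgcagcag
The first Ppargc1a probe was well above background in Cy5 on 18 of the 22 arrays and the second on none, so that Ppargc1a is read from the first alone.

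Of the 10 members, 8 could be tested, through 11 of their 17 probes; testing asked for Cy5 well above background on 10 or more arrays. Prdm16 reached that level on 7 arrays (5 normoxia, 2 hypoxia) and Dio2 on 2 (1 in each group), and neither was tested. The arrays differed in how much they detected: between 15.6% and 76.8% of spots exceeded background clearly in Cy5, and on the 4 arrays of slide 1 under 19% did. In Cy3, which carried the same pool on every array, 3 arrays on different slides stood apart. They were normoxia replicates 2 (81.8%) and 6 (85.8%) and hypoxia replicate 3 (82.8%), against 40.6% to 62.8% on the others. Checked against markers, the tissue gave all 10 white adipocyte genes bright enough to test, whereas of 6 brown adipocyte markers Ucp1 was well above background on 3 arrays and Elovl3 on 0, and only Cox8b and Slc36a2 were bright enough to test. In such pieces of whole tissue, fewer cells of a type and less RNA per cell cannot be told apart.

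In hypoxia none of the 8 tested members passed an adjusted p of 0.05 (limma, Benjamini-Hochberg over 16578 genes). The background for that count is 0%, since no gene on the array passed; the smallest adjusted p over all genes was 0.0691. At an unadjusted p under 0.05, 1 member (Esrra, lower) stood out, against 5.3% of all genes, of which 2.73% were lower and 2.58% higher. The differences of 6 tested members lay below 0 and those of 2 above, with a median of -0.05, while 49.6% of all genes lay below 0 and their median was 0.00113. Esrra and Cidea were the lowest at -0.26 each, Gabpa the highest at 0.12, and the other 5 lay between -0.06 and 0.08.

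**Figure D1:**
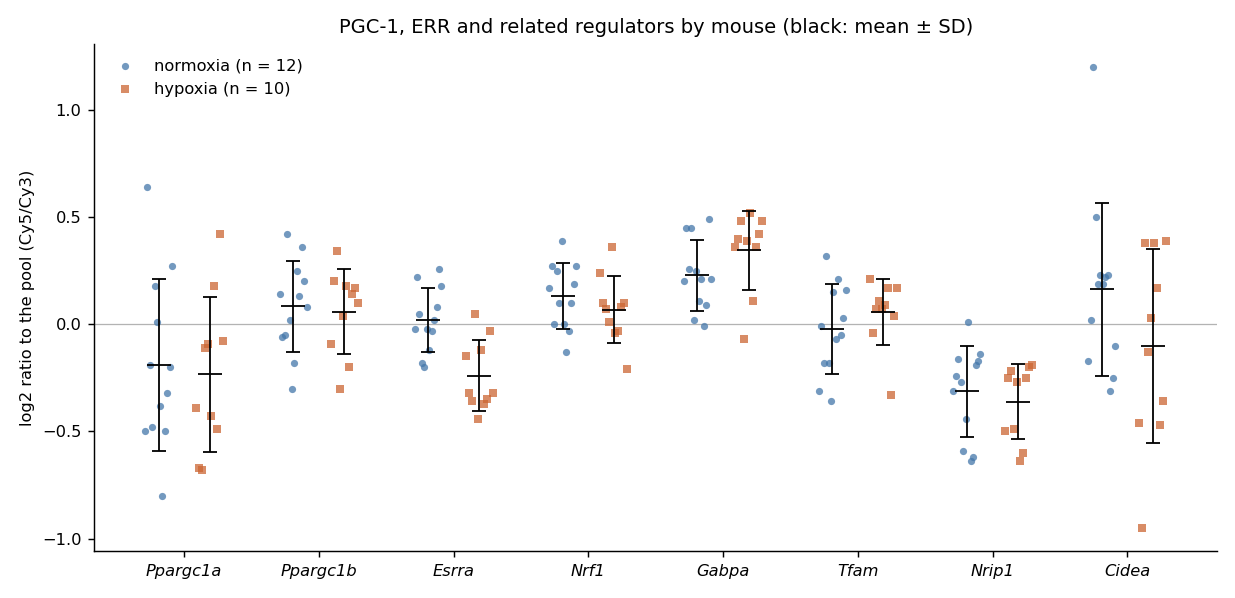
Log2 ratio to the pool (vertical axis) of the 8 tested members in each of 12 normoxia mice (blue circles) and 10 hypoxia mice (orange squares), with the mean ± SD in black. Esrra is the gene whose hypoxia mice sit lowest against a narrow normoxia range (means 0.02 and -0.24), while Ppargc1a and Cidea spread widely in both groups.

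Esrra encodes ERR alpha, the receptor through which PGC-1 coactivators reach many genes of oxidative metabolism. In normoxia its log2 ratios ran from -0.20 to 0.26 with a median of 0. In hypoxia they ran from -0.44 (replicate 5) to 0.05 (replicate 4) with a median of -0.32. The groups overlapped, but 6 of the 10 hypoxia mice lay below every normoxia mouse, a pattern of at least that size that 0.356% of all tested genes showed in the lower direction, and 9 lay below the normoxia mean, as in 4.2% of genes. The group means were 0.02 ± 0.15 (SD, n = 12) and -0.24 ± 0.16 (SD, n = 10). The difference of -0.26 ± 0.08 (SE; 95% interval -0.42 to -0.11), 1.2-fold lower, had an unadjusted p of 0.00182 and rank 58 of all genes in limma's test. After adjustment over all genes p was 0.513, so that this difference did not pass.

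Slides are the only batch that the files show, since each slide was scanned at one time. Of 6 slides, 5 carried 2 mice of each group, and Esrra was lower in the hypoxia mice of all 5, by -0.41 to -0.12 with a mean of -0.25. The share of all genes lower on all 5 slides was not counted. These are the same mice as in the group comparison, so the slides describe that difference and do not test it again. Leaving out 1 mouse at a time kept the difference between -0.29 and -0.24. The single Esrra probe was well above background on all 22 arrays and saturated on none. Its spread within groups was among the smallest, with a pooled SD of 0.16 at the 6.3th percentile of all genes tested.

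**Figure D2:**
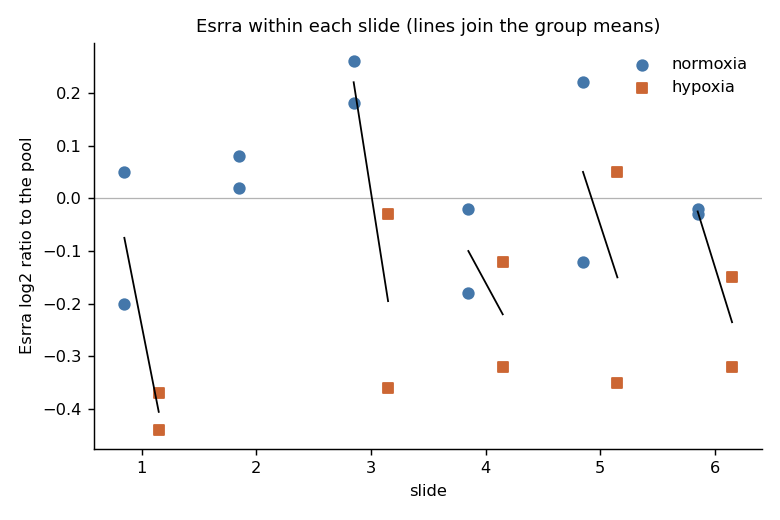
Log2 ratio of Esrra to the pool (vertical axis) for each mouse on each of the 6 slides (horizontal axis), normoxia as blue circles and hypoxia as orange squares, with a line joining the 2 group means of a slide. The line falls on each of the 5 slides that carried both groups, and slide 2 carried normoxia mice alone.

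Ppargc1a encodes PGC-1 alpha, the inducible member of the family. Its log2 ratios ran from -0.80 to 0.64 in normoxia (median -0.26) and from -0.68 to 0.42 in hypoxia (median -0.25). The highest mice were normoxia replicate 2 and hypoxia replicate 9, the lowest normoxia replicate 8 and hypoxia replicate 3, and no hypoxia mouse lay outside the normoxia range. The means were -0.19 ± 0.40 (SD, n = 12) and -0.23 ± 0.36 (SD, n = 10). The difference of -0.04 ± 0.15 (SE; 95% interval -0.35 to 0.27) had an adjusted p of 0.995 in limma's test. Its sign turned under other settings: it was 0.14 from Feature Extraction's own log ratio and 0.11 without the 3 arrays of high Cy3 signal. Mice of one group differed widely, with a pooled SD of 0.38 at the 92.6th percentile of all genes, and the interval leaves room for a fall as well as a rise.

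Ppargc1b, the gene of PGC-1 beta, was read from 1 probe (chr18:61458222-61458281 on mm9, minus strand) that was well above background on 15 arrays. Its values ran from -0.30 to 0.42 in normoxia and from -0.30 to 0.34 in hypoxia, with medians of 0.10 and 0.12. The 2 ranges were close to each other at both ends, and the difference was -0.02 ± 0.09 (SE; 95% interval -0.21 to 0.16; adjusted p = 0.995, limma). Within the 5 slides it averaged 0.01, so that no direction can be given.

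The 2 factors that bind the promoters of respiratory genes, and their target Tfam, did not differ beyond the spread of the mice. Nrf1 was read from the probe at chr6:30103035-30103094, with ranges of -0.13 to 0.39 in normoxia and -0.21 to 0.36 in hypoxia. The Nrf1 difference was -0.06 ± 0.07 (SE; 95% interval -0.22 to 0.09; adjusted p = 0.985, limma). Its other 2 probes were well above background on 5 and 0 arrays and were not tested. Gabpa was the only member to lean upward by more than 0.1, and only by one of its probes. Its first probe ran from -0.01 to 0.49 in normoxia (median 0.21) and from -0.07 to 0.52 in hypoxia (median 0.39), with 8 of 10 hypoxia mice above the normoxia mean, as in 11.8% of all genes. That difference was 0.12 ± 0.08 (SE; 95% interval -0.05 to 0.28; adjusted p = 0.977, limma). The second Gabpa probe, which lies nearer the start of the gene, differed by 0 ± 0.10 (SE; 95% interval -0.19 to 0.20).

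Tfam, the packaging protein of mitochondrial DNA, was read best by the probe at chr10:70691103-70691162. Its values ran from -0.36 to 0.32 in normoxia (median -0.03) and from -0.33 to 0.21 in hypoxia (median 0.08). Of the hypoxia mice, replicate 8 lay apart at -0.33 and the other 9 between -0.04 and 0.21, all of them within the normoxia range. The difference was 0.08 ± 0.08 (SE; 95% interval -0.09 to 0.25; adjusted p = 0.984, limma). The second tested Tfam probe differed by 0.02 ± 0.09 (SE).

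Nrip1, the gene of the corepressor RIP140, had 2 tested probes whose differences were of opposite sign and both within their error. The brighter one (chr16:76291555-76291614) ran from -0.64 to 0.01 in normoxia and from -0.64 to -0.19 in hypoxia, with medians of -0.25 and -0.26. Its difference was -0.05 ± 0.09 (SE; 95% interval -0.23 to 0.13; adjusted p = 0.994, limma). The other (chr16:76288478-76288537) differed by 0.09 ± 0.10 (SE; 95% interval -0.11 to 0.30), with 9 of 10 hypoxia mice above the normoxia mean, a pattern that 4.01% of all genes showed.

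**Figure D3:**
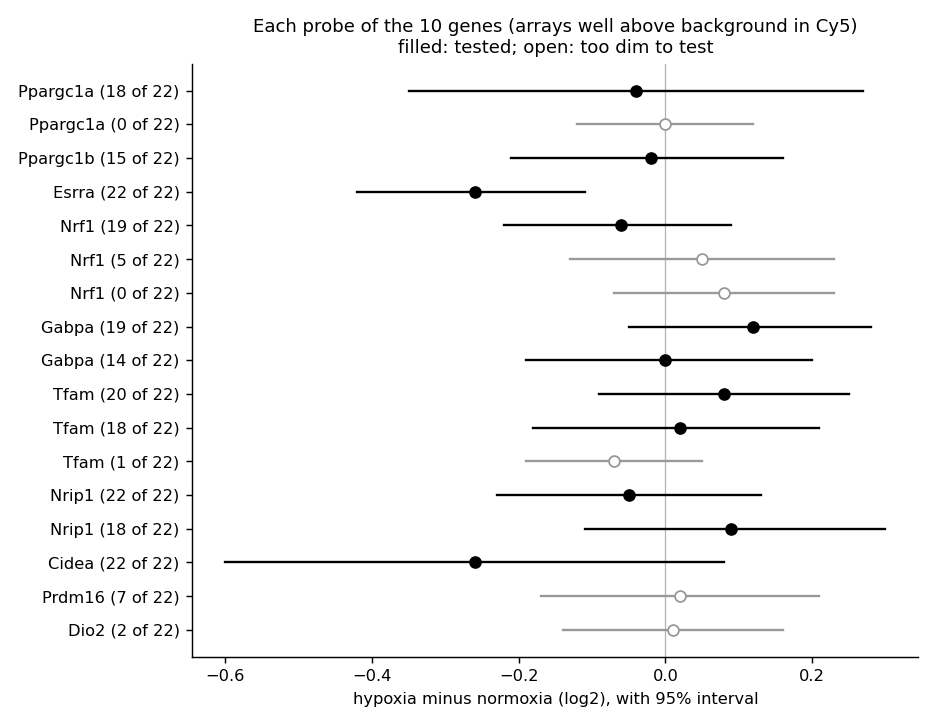
Hypoxia minus normoxia on the log2 scale with its 95% interval (horizontal axis) for all 17 probes of the 10 genes, each with the number of arrays on which it was well above background in Cy5; filled points were tested, open ones were too dim. The interval of Esrra, from -0.42 to -0.11, is the only one that leaves out 0, and the probes of Gabpa, Tfam and Nrip1 show how far 2 readings of a gene lie from each other.

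Cidea, the lipid droplet protein, had the same mean difference as Esrra with a far wider spread (pooled SD 0.43, at the 94.8th percentile of all genes). Its probe (chr18:67527351-67527410 on mm9, plus strand) was well above background on all 22 arrays. Values ran from -0.31 to 1.20 in normoxia (median 0.19) and from -0.95 to 0.39 in hypoxia (median -0.05). The highest mouse of all was normoxia replicate 3 and the lowest hypoxia replicate 2; 4 hypoxia mice lay below every normoxia mouse, and at least 4 did so in 2.59% of all genes. The means were 0.16 ± 0.40 (SD, n = 12) and -0.10 ± 0.45 (SD, n = 10). The difference of -0.26 ± 0.17 (SE; 95% interval -0.60 to 0.08) had an unadjusted p of 0.122 and an adjusted p of 0.965 in limma's test. Within slides it ran from -0.73 to 0.18 and was below 0 on 3 of 5, so that it did not hold on every slide as that of Esrra did. Leaving out 1 mouse at a time moved it between -0.32 and -0.17, the latter without normoxia replicate 3 or without hypoxia replicate 2.

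Prdm16 and Dio2 are given as values only, since most of their readings were not well above background. Prdm16 (chr4:153690254-153690313) ran from -0.63 to 0.30 in normoxia and from -0.29 to 0.04 in hypoxia, and its means differed by 0.02 ± 0.09 (SE). Dio2 (chr12:91963235-91963294) ran from -0.28 to 0.32 in normoxia and from -0.14 to 0.47 in hypoxia, with a mean difference of 0.01 ± 0.07 (SE). Readings at that level give no measured difference. Of the thermogenic genes beyond the members, the uncoupling protein gene Ucp1, well above background on 3 arrays, had means of -0.41 ± 0.93 (SD, n = 12) and -0.65 ± 0.34 (SD, n = 10), and Elovl3, a fatty acid elongase, was not well above background on any array.

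The members were next set beside 7 lists of genes they work with, none of which held a gene past the threshold. Close relatives of the members had 8 of 14 genes tested, 5 higher and 3 lower, with a median difference of 0.04. Pprc1, the remaining PGC-1 family coactivator, differed by -0.14 ± 0.27 (SE; -0.34 without hypoxia replicate 5 and 0 without normoxia replicate 6), and Cidec, a lipid droplet protein of the Cidea family, by 0.05 ± 0.17 (SE). Lcor, a corepressor, differed by 0.13 ± 0.10 (SE) and Nfe2l2, an antioxidant regulator whose product is also called NRF2 but is not GABP, by 0.08 ± 0.10 (SE). Esrrb and Esrrg, the other ERR genes, were too dim to test.

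Coactivators and corepressors that share complexes with the members had 22 of 23 tested, 11 higher and 11 lower, with a median of 0. The smallest p-values there belonged to Hcfc1 (-0.18 ± 0.10, SE), a host cell factor that binds PGC-1 and GABP, and to Sin3a (0.13 ± 0.07, SE), a scaffold of histone deacetylases. Ncoa3 differed by -0.13 ± 0.08 (SE) and Ncoa2 by 0.12 ± 0.09 (SE); both encode coactivators of nuclear receptors. Transcription factors that recruit PGC-1 had 20 of 24 tested, 10 higher and 10 lower, with a median of 0.01. Among them Foxo1, a fasting-responsive forkhead factor, was the highest at 0.25 ± 0.08 (SE; unadjusted p = 0.0038, adjusted p = 0.683, limma), with 9 of 10 hypoxia mice above the normoxia mean (4.01% of all genes), and its other probe read 0.12 ± 0.09 (SE). Sp1 differed by 0.16 ± 0.09 (SE), Nr1h3, the liver X receptor alpha gene, by -0.16 ± 0.09 (SE) and Myc by 0.12 ± 0.08 (SE). The PPAR genes, whose receptors are the best known partners of PGC-1 in fat and liver, stood at -0.04 ± 0.10 (SE) for Pparg and -0.12 ± 0.12 (SE) for Ppara.

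Signals that act on Ppargc1a in fat, from beta-adrenergic receptors to cyclic AMP and energy-sensing kinases, had 22 of 24 genes tested, 11 higher and 11 lower, with a median of 0. The members of this list furthest from 0 were the receptors themselves. Adrb3, the beta-3 adrenergic receptor of adipocytes, had means of 0.17 ± 0.81 (SD, n = 12) and -0.59 ± 0.50 (SD, n = 10). Its difference was -0.76 ± 0.26 (SE; unadjusted p = 0.00697, adjusted p = 0.746, limma), and all 10 hypoxia mice lay below the normoxia mean, as in 0.935% of all genes. A second Adrb3 probe read -0.43 ± 0.23 (SE). Adrb1, the beta-1 receptor, differed by -0.28 ± 0.12 (SE; adjusted p = 0.873, limma) and Adcy6, an adenylyl cyclase, by -0.25 ± 0.11 (SE; adjusted p = 0.9, limma). Mapk14, the p38 kinase that phosphorylates PGC-1 alpha, differed by -0.18 ± 0.12 (SE).

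The machinery that transcribes and copies mitochondrial DNA, in which Tfam works, had 15 of 18 genes tested, 12 below 0 and 3 above, where 49.6% of all genes lay below 0. The median was -0.06 against 0.00113 over all genes, and 1 of the 15 had an unadjusted p under 0.05. The furthest was Tfb1m, which methylates mitochondrial ribosomal RNA, at -0.26 ± 0.12 (SE; unadjusted p = 0.0421, adjusted p = 0.92, limma). Mrpl12, a ribosomal protein that also binds the mitochondrial RNA polymerase, stood at -0.16 ± 0.09 (SE), Mterf4 at -0.11 ± 0.09 (SE) and the topoisomerase Top1mt at 0.09 ± 0.07 (SE). Known targets of ERR and PGC-1, mostly mitochondrial enzymes, respiratory subunits and carriers and with them the secreted growth factor gene Vegfa, were all bright enough to test, 13 of 32 higher and 19 lower, with a median of -0.01. Pdk4, the pyruvate dehydrogenase kinase that ERR and PGC-1 can induce, stood highest at 0.45 ± 0.18 (SE; unadjusted p = 0.0168, adjusted p = 0.846, limma), opposite in sign to Esrra. Acadvl, which oxidises very long fatty acids, stood at -0.17 ± 0.08 (SE), cytochrome c1 (Cyc1) at -0.23 ± 0.11 (SE) and Idh3a of the citric acid cycle at -0.18 ± 0.12 (SE).

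Genes of brown and beige adipocytes had 15 of 24 tested, 9 higher and 6 lower, with a median of 0.04. The fasting and thermogenic hormone Fgf21 differed by 0.22 ± 0.11 (SE), the beige marker Tbx1 by 0.24 ± 0.16 (SE), the amino acid carrier Slc36a2 by -0.18 ± 0.13 (SE) and the brown fat subunit of cytochrome oxidase Cox8b by -0.25 ± 0.18 (SE). None of these 4 reached an unadjusted p of 0.05.

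**Figure D4:**
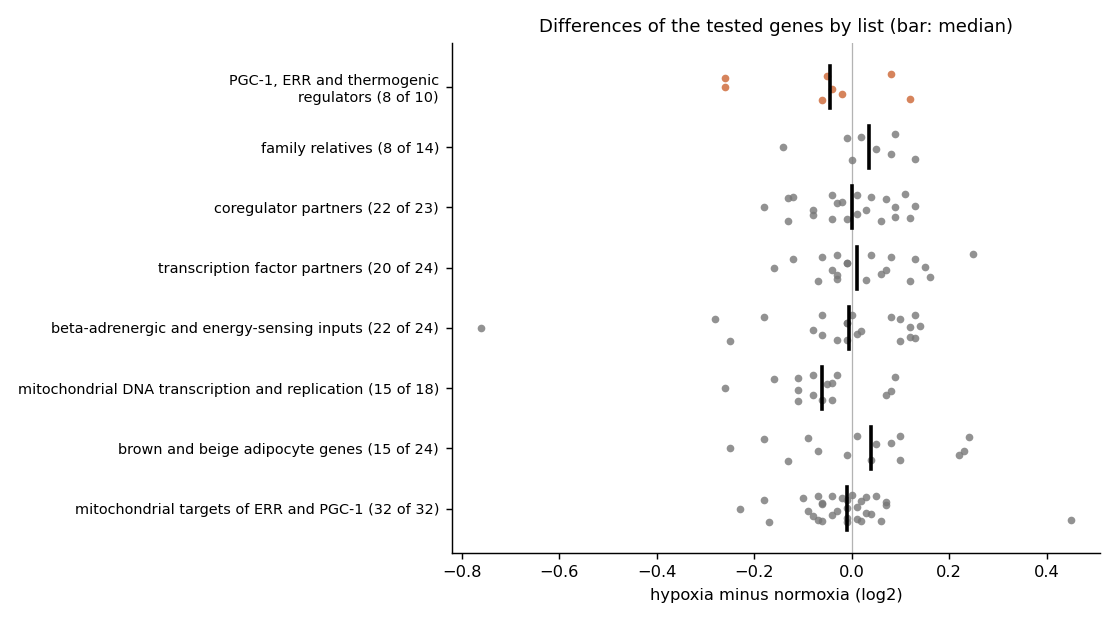
Hypoxia minus normoxia on the log2 scale (horizontal axis) for every tested gene of the 10 members (orange) and of the 7 related lists (grey), with the number tested of the number listed; a black bar marks each median. The medians lie between -0.06 and 0.04, the point furthest to the left is Adrb3 at -0.76 and the one furthest to the right Pdk4 at 0.45.

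How the members varied together among the mice of a group was examined pair by pair. Of 28 pairs of tested members, none passed an adjusted p of 0.05 over the 22 mice by Pearson or Spearman correlation with group means removed (permutation test, 100000 resamples, two-sided), nor with slide means removed too. A p that misses the threshold does not show that a pair is unrelated. The 2 coactivator genes gave the strongest inverse relation, with r = -0.45 (permutation p = 0.0416, adjusted p = 0.583) and rho = -0.57 (permutation p = 0.00844, adjusted p = 0.236). Ppargc1b and Gabpa gave the strongest positive one, with r = 0.47 (permutation p = 0.0319, adjusted p = 0.583), rho = 0.41 (permutation p = 0.0611, adjusted p = 0.67), and r = 0.38 without the 2 mice furthest from the median of Ppargc1b. For this pair r was 0.88 within hypoxia and 0.13 within normoxia, a difference that was not tested, and 0.54 with slide means removed. Ppargc1a and Esrra, coactivator and receptor, gave r = 0.35 (permutation p = 0.116, adjusted p = 0.648), which was 0.11 without the 2 mice furthest from the median of Ppargc1a, 0.51 with slide means removed (adjusted p = 0.396) and 0.63 without slide 1.

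The ratios of Ppargc1a moved with those of marker genes of other cell types. Of 80 relations between the 8 tested members and the mean log2 ratio of the 10 cell marker lists with at least 2 tested genes, computed after other results had been seen, 1 passed: Ppargc1a against 6 endothelial markers. It was inverse, with r = -0.83 (permutation p = 1e-05, the smallest that 100000 resamples give; adjusted p = 8e-04) and rho = -0.78 (permutation p = 9e-05, adjusted p = 0.0072). It was -0.86 within normoxia, -0.77 within hypoxia, -0.83 with slide means removed and -0.76 without the 2 mice furthest from the median of the score. It did not hold in the deposited value table, where r was -0.15. Single endothelial markers gave r between -0.10 (Tek) and -0.62 (Cdh5) with Ppargc1a.

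The 5 genes with a symbol whose ratios were most like those of Ppargc1a over the 22 mice, group means removed, were Tmc4 (r = 0.91), Tst (0.90), Slc39a4 (0.90), Rassf7 (0.89) and Epb41l4b (0.89). Since some of these are known from epithelia, a list of 16 epithelial genes was written after they had been seen, and its values are therefore a description. Of the 16, 7 could be tested, and 6 of them, the keratins Krt8, Krt18 and Krt19, the claudins Cldn3 and Cldn7 and the epididymal receptor Adgrg2, gave r between 0.75 and 0.88 with Ppargc1a; Krt7 gave 0.14. The mean of the 7 ran from -1.48 to 0.90 in normoxia (median -0.84) and from -1.42 to 0.63 in hypoxia (median -0.73), so that mice of both groups lay at both ends. Ppargc1a gave r = 0.85 with this mean, 0.80 within normoxia, 0.93 within hypoxia, 0.86 with slide means removed and 0.80 without the 2 mice furthest out. Ppargc1b gave r = -0.53 with it, and the other 6 members between -0.14 and 0.21.

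With the epithelial mean as a covariate, the group difference of Ppargc1a was -0.07 ± 0.09 (SE; 95% interval -0.25 to 0.12). The list behind that mean was written after the genes most like Ppargc1a had been seen. A narrower interval therefore follows from that choice and is no independent gain in precision. The difference of Esrra stayed at -0.26 ± 0.08 (SE; adjusted p = 0.381, limma). Of 5 epididymis markers, 1, Rnase10, was bright enough to test, with a difference of -0.63 ± 0.48 (SE). Against measures taken over the whole array, the r of Ppargc1a was -0.19 with the percentage of bright spots in Cy5 and 0.22 with that in Cy3. It was -0.05 with the median Cy5 signal and -0.09 with the spread of the ratios. These measures do not describe the Ppargc1a spots themselves. The part of epithelial cells or of array quality in the Ppargc1a values was not tested.

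**Figure D5:**
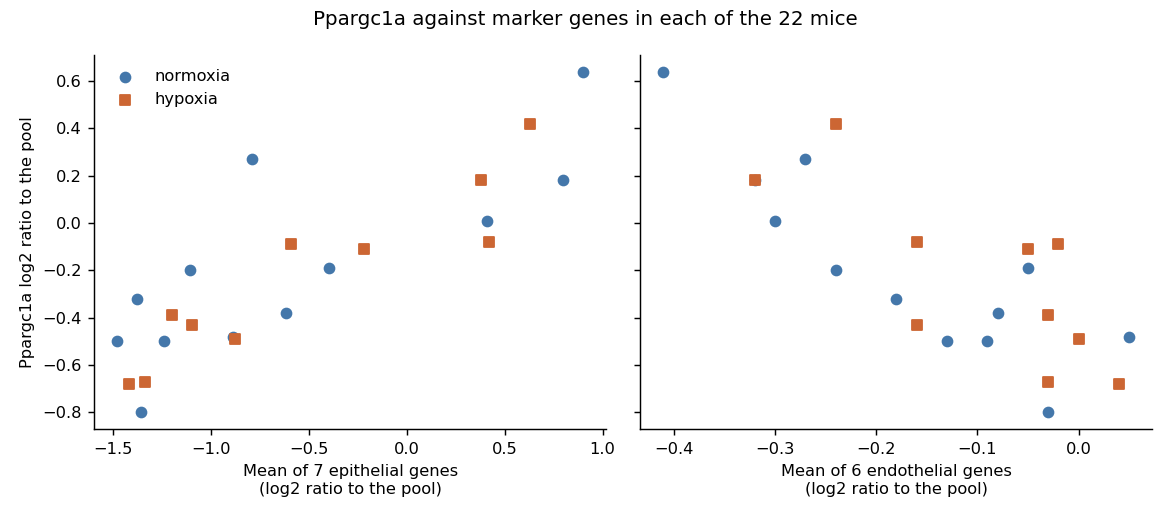
Log2 ratio of Ppargc1a to the pool (vertical axis) against the mean log2 ratio of 7 epithelial genes (left) and of 6 endothelial genes (right) in 12 normoxia mice (blue circles) and 10 hypoxia mice (orange squares). Ppargc1a rises with the first (r = 0.85, group means removed) and falls with the second (r = -0.83), and mice of both groups lie along the whole of each trend.

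Esrra showed this pattern only weakly. Its r with the epithelial mean was 0.04, and with the 10 marker lists it ran from -0.34 (endothelial) to 0.38 (mesothelial), none past the threshold. With slide means removed too, r was 0.28 with the epithelial mean, -0.43 with the endothelial list and 0.23 with the mesothelial list. Among the 10 marker lists with at least 2 tested genes, those that differed most between the groups were those of red blood cells (0.46 higher in hypoxia), smooth muscle (0.41) and sperm (-0.47), and Esrra gave r = -0.05, -0.12 and -0.25 with these; their part in its difference was not tested. The genes most like Esrra were Araf (r = 0.80), Chchd6 (0.79), Wls (0.79), D030056L22Rik (0.78) and Usp10 (0.78), of which Chchd6 encodes a protein of the mitochondrial cristae. Those most like Cidea were Oaz1 (r = 0.73), Atp6v0e (0.71), Dync1i2 (0.71), Grb14 (0.69) and Blvrb (0.69), and their r was between 0.43 and 0.58 with slide means removed.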

How the data were processed

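The members and lists were chosen with earlier results of these data known. Per the submitters' processing notes, the 22 arrays were read with Agilent Feature Extraction 10.7.3.1. The deposited mean signals and local backgrounds are intensity values without normalization. The log10 ratio in the same deposited files carries that program's background subtraction and dye normalization. The deposited value table holds log2 values with equal medians, closer to Cy5 levels than to ratios, and no source used here says how the authors normalized it. Both served as alternatives.

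Here, background was corrected with normexp (offset 50) and each array normalized by loess in limma 3.58.1 (R 4.3.3), with control spots at weight 0 and flagged outlier spots left out. Repeated spots were averaged. A probe needed Cy5 well above background on 10 arrays and 2 values per group, and a gene was read from its probe of highest mean intensity. Names were updated through RefSeq's GRCm38.p6 table. Groups were compared with lmFit and eBayes, group as the only term, and adjusted by Benjamini-Hochberg over 16578 genes. Text names all members, the 4 genes of smallest p in each list, Ucp1, Elovl3, Cox8b, Adrb3, Pparg and Ppara, and the 5 genes most like Ppargc1a, Esrra and Cidea. The fit was tested on simulated data. Precision is limited by the number of arrays, with a median SE of 0.0981.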

Additional observations from a re-analysis of the deposited data

Results flagged for a closer look

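In 17 probes of the members, the hypoxia mice were checked for a mouse that lies far from the other 9; chance gives about 1 in 20 and 3 were found. For the brighter Tfam probe, hypoxia replicate 8 lay at -0.33 and the others between -0.04 and 0.21. For the second Nrip1 probe, hypoxia replicate 4 lay at 0.42 and the others between -0.08 and 0.16. For Dio2, which was not well above background on most arrays, hypoxia replicate 10 lay at 0.47 and the others between -0.14 and 0.16.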

How the results depend on the processing

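No member passed the threshold under any alternative run. Over all genes, the count past it was 0 as reported, 1 with Feature Extraction's log ratio, with scaling between arrays or with slide as a random block, 2 with Cy5 alone, with probes well above background on all arrays, with slide as a fixed block or without slide 1, 4 with array weights, 6 with the epithelial mean as a covariate (added after the data were seen), and 0 to 3 when each mouse was left out in turn, 3 of them without hypoxia replicate 7. Esrra stayed below 0 under 15 of 15 alternatives, from -0.37 in the deposited table to -0.22, with adjusted p from 0.159 to 1. The median of the members was -0.26 with probes bright on all arrays, a rule that kept 3 members. Of 28 pairs of members, 14 varied together in the deposited table, whose values look closer to Cy5 levels than to ratios. The cause was not tested. Replicate numbers are shared by 10 pairs of mice, whose deviations correlated at -0.47 to 0.25 and so did not pair. With the replicate block no gene passed, Esrra was -0.22, and Ppargc1a and the endothelial mean gave r = -0.87. The permutation p there, multiplied by the 80 relations, was 0.4. Swaps within 10 pairs are too few for that p to fall under 0.05, so it decides nothing about the relation. Signs turned as follows, the cause not tested. Ppargc1a was 0.14 with Feature Extraction's log ratio, 0.11 without the 3 arrays of high Cy3, and -0.12 to 0.03 with a mouse left out. Ppargc1b was -0.26 with Feature Extraction's log ratio and -0.15 without background correction, but 0.03 with Cy5 alone, 0.01 with slide as a fixed block or within slides, and -0.06 to 0.01 with a mouse left out. Tfam was -0.02 in the deposited table, Pprc1 0.04 with Feature Extraction's log ratio, Myc -0.01 with Cy5 alone and Pparg 0.01 with the replicate block. Cidec was -0.02 with Cy5 alone, -0.11 in the deposited table, -0.01 without slide 1, -0.04 without the arrays of high Cy3, and -0.05 to 0.15 with a mouse left out. With Feature Extraction's log ratio the 5 genes most like Esrra gave r from 0.03 (Wls) to 0.54 (Usp10), and of those most like Cidea, Atp6v0e gave 0.15, Oaz1 0.16, Dync1i2 0.21 and Blvrb 0.44.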
